A study of Mus musculus with 4 samples.

Results

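The genes described here are members of the BCL2 family, which governs whether a cell commits to apoptosis at its mitochondria. The family holds 10 members chosen by name: the survival genes Bcl2, Bcl2l1 and Mcl1, the effectors Bax and Bak1, and the BH3-only genes Bcl2l11, Bid, Bad, Bbc3 and Pmaip1. All probe sets that the platform annotation paired with a single member were taken, which gave 29 probe sets for 9 members, of 34945 one-gene probe sets for 18193 genes in all. The annotation used here pairs no probe set with Bax, so Bax was not analysed here. Each member is represented by its brightest probe set, by the mean log2 value of all arrays.

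The cells were primary leukemic blasts of a megakaryoblastic (M7) leukemia with the designation T6(6), raised in mice by retroviral insertional mutagenesis of Gata1s fetal progenitors. Gata1s denotes the mutant that makes the short form of GATA1, and every array carries it; there is no array of cells without the mutation or without leukemia. The retrovirus carried a GFP reporter, GFP-positive blasts were sorted, and the level of GFP was not analysed here. The groups were spleen blasts of mouse 1 and mouse 2 and peripheral blood blasts of the same 2 mice, with no treatment, 1 array for each tissue of each mouse. The age and strain of the mice are not given in the sources used here, and T6(6) is the designation of both animals.

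In a healthy cell, survival proteins such as BCL2, BCL-XL (encoded by Bcl2l1) and MCL1 hold the effectors BAX and BAK in check. BH3-only proteins sense stress and either block the survival proteins or activate the effectors, which then perforate the outer mitochondrial membrane and release cytochrome c. In platelets and megakaryocytes BCL-XL and MCL1 are the best known survival proteins, and BAK and BAX are the effectors that set the life span of platelets. MCL1 and NOXA, the product of Pmaip1, are short-lived proteins, so their transcripts are often followed. Transcript levels do not report protein levels.

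The comparison asked how transcript levels of the family in spleen blasts differed from those in blood blasts. Of the 9 measured members 6 were lower in spleen in both mice: Pmaip1, Mcl1, Bcl2l11, Bbc3, Bad and Bcl2l1. Bcl2l11 was close to level in mouse 1, with a log2 difference of -0.0057. Bcl2 was higher in both mice at its brightest probe set, while Bak1 and Bid went opposite ways in the 2 mice. The widest difference was that of Pmaip1, at -0.81 ± 0.18 (SE, 2 arrays per tissue) on the log2(intensity + 16) scale. No member passed limma's test over all genes with Benjamini-Hochberg adjustment, so none of these differences is called. Lower in spleen in both mice were 25.1% of all tested genes, higher in both were 38.5%, and opposite directions were found for 36.4%. The median difference was -0.15 over the 9 members and 0.03 over all 11614 tested genes.

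The test gave 0 genes with an adjusted p under 0.05 (0% of those tested), with limma as the sole tool, and 1443 genes with an unadjusted p under 0.05. Of the latter, 943 (8.12% of the tested genes) were higher and 500 (4.31%) were lower in spleen. This balance depended on the processing: it was 1312 higher and 354 lower with arrays centred on their median, 765 and 602 with quantile normalization, and 768 and 772 without spleen of mouse 1, and without blood of mouse 2 it was 428 and 239. Mcl1 and Pmaip1 were the 2 members with an unadjusted p under 0.05, both lower. For Mcl1 limma's unadjusted p was 0.032, but 0.054 without the brightness filter and 0.055 with the mean of all probe sets. It stayed under 0.05 in the other alternatives that kept all 4 arrays. Leaving out 1 array at a time gave differences for Mcl1 between -0.45 and -0.25. An exact permutation test of 2 arrays against 2 cannot give a two-sided p below 0.333. Replicate spread is that between 2 animals, and precision is limited by having only 4 arrays.

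The 4 arrays had median intensities of 108.3 and 103.7 in spleen and 110.6 and 108.8 in blood of mouse 1 and mouse 2. Megakaryocyte markers were bright: the platelet chemokine Pf4 had intensities of 8341 and 8680 in spleen and 7507 and 7767 in blood, and the platelet integrin chain Itga2b had 4237 and 4990 in spleen and 4247 and 4512 in blood. Itgb3, the partner chain of that integrin, was under the brightness filter, with 39.7 and 122.6 in spleen and 15.9 and -4.17 in blood. Of the 7 tested markers of this lineage, both mice had higher spleen values for 6 and the median difference was 0.72, though 0 passed the test over all genes. Over all tested genes 38.5% were higher and 25.1% lower in spleen in both mice. The platelet receptor gene Treml1 had 232.0 and 319.0 in spleen against 82.8 and 73.8 in blood, and Gp1bb differed by 1.06, Ppbp by 0.99 and Vwf by 0.72. The part of this shift in the differences of the BCL2 family was not tested. Markers of granulocytes were uneven across the arrays. The summed intensity of 14 granulocyte genes was 6802 and 3505 in spleen of mouse 1 and mouse 2, against 8576 and 19015 in blood, so both extremes were arrays of mouse 2, spleen the lowest and blood the highest. S100a8 and S100a9 made up much of these sums, which without them were 4471 and 3183 in spleen against 3897 and 7552 in blood. Of the 11 tested granulocyte genes 8 were lower in both mice and 2, the granule proteases Prtn3 and Ctsg, were higher. Prtn3 had 1609 and 1340 in spleen against 951 and 931 in blood, and Ctsg had 758 and 784 in spleen against 529 and 616 in blood. Sums for 12 macrophage genes were 4395 and 3082 in spleen against 3578 and 7102 in blood, and for 13 T and NK cell genes 9183 and 5869 against 7767 and 11015. Without the granzyme gene Gzma the T and NK sums were 6425 and 5699 in spleen against 6429 and 7530 in blood, and 5 of the 12 tested genes had the order of arrays seen in the sum of granulocyte genes. None of the marker genes was at 0 on all arrays. Fewer cells of a type and less RNA per cell cannot be told apart in such bulk samples.

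**Figure D1:**
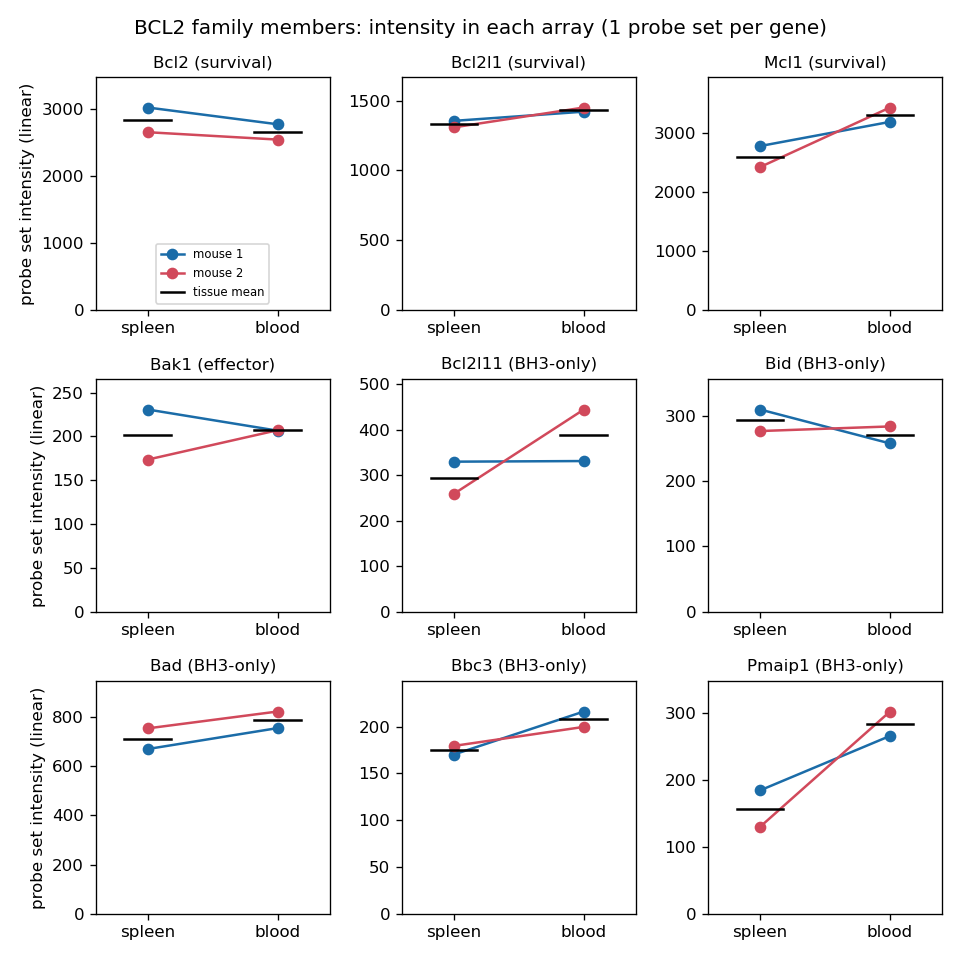
Intensity of the chosen probe set of each of the 9 members (linear scale from 0) in spleen, at left, and blood, at right, with a line joining the arrays of 1 mouse and a black bar for the mean of the 2 arrays. Mcl1, Pmaip1, Bbc3, Bad, Bcl2l1 and Bcl2l11 have both spleen points below both blood points, and Bcl2, Bak1 and Bid do not.

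Among the survival genes at their brightest probe sets, Mcl1 differed most between the tissues. Mcl1 had intensities of 2786 and 2428 in spleen of mouse 1 and mouse 2, against 3198 and 3443 in blood of these mice. Both spleen arrays lay below both blood arrays, and the distance was wider in mouse 2. The log2 difference was -0.20 in mouse 1 and -0.50 in mouse 2, and the fitted difference was -0.35 ± 0.13 (SE), a 0.785-fold level in spleen, with limma's adjusted p = 0.363. All 6 probe sets of Mcl1 were lower in spleen in both mice, with differences between -0.03 and -0.20 in mouse 1 and between -0.44 and -0.66 in mouse 2. These probe sets share a target transcript and RNA, so they repeat the measurement and are no added replicates. When every one-gene probe set was tested, their fitted differences ranged from -0.36 to -0.25 and the smallest adjusted p by limma was 0.316.

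Bcl2l1, which makes BCL-XL, was nearly level. Its brightest probe set, 1420888_at, had intensities of 1355 and 1308 in spleen and 1421 and 1451 in blood. The groups did not overlap, but the fitted difference was -0.11 ± 0.11 and limma's adjusted p was 0.723. The 95% interval ran from -0.38 to 0.16, which leaves room for differences in either direction. The other 3 probe sets did not share the direction: 1420887_a_at was higher in spleen in both mice, at 328.5 and 353.6 against 325.7 and 322.0 in blood, and 1426191_a_at and the dim 1426050_at went opposite ways in the mice. With the mean of all 4 probe sets the difference was 0.0042.

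Bcl2, the founding survival gene of the family, gave no single answer across its 5 probe sets. The brightest, 1457687_at, had 3021 and 2652 in spleen and 2770 and 2541 in blood. Spleen was higher within each mouse, but the groups overlapped across mice, with a fitted difference of 0.09 ± 0.13 and limma's adjusted p = 0.799. Probe set 1422938_at went the other way, with 409.1 and 352.9 in spleen against 505.9 and 496.9 in blood. Its difference was -0.30 in mouse 1 and -0.48 in mouse 2, and the fitted value was -0.39 ± 0.13 with limma's adjusted p = 0.283 over all probe sets. Probe set 1443837_x_at was also lower in both mice, at 566.1 and 413.7 against 632.8 and 687.2. The remaining 2 probe sets, 1437122_at and 1440770_at, were higher in mouse 1 and lower in mouse 2. With the mean of the 5 probe sets Bcl2 differed by -0.17, so the sign of its difference depends on the probe set taken.

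**Figure D2:**
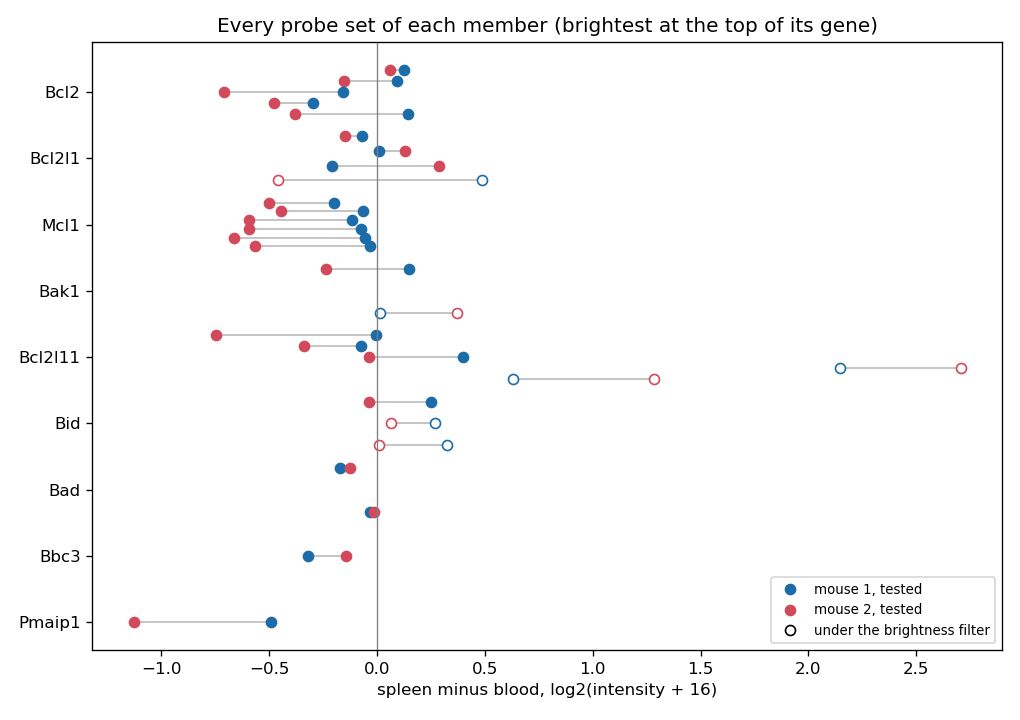
Spleen minus blood on the log2(intensity + 16) scale for all 29 probe sets of the 9 members, with a filled point per mouse for the 23 probe sets that passed the brightness filter and open points for the other 6. The 6 probe sets of Mcl1 all lie left of 0 in both mice, while those of Bcl2, Bcl2l1 and Bcl2l11 lie on both sides.

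Of the effectors, Bak1 alone could be read. Bak1 had 230.8 and 173.6 in spleen of mouse 1 and mouse 2, against 206.6 and 207.2 in blood. The blood arrays were almost equal and the spleen arrays lay on either side of them, so the difference was 0.15 in mouse 1 and -0.24 in mouse 2. The fitted difference was -0.04 ± 0.15 and limma's adjusted p was 0.928, with a 95% interval from -0.42 to 0.33. A second probe set, 1425716_s_at, stayed between 47.3 and 65.9 on all arrays, under the brightness filter of 106.4.

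Pmaip1 makes NOXA, a BH3-only protein that binds MCL1 and is a known transcriptional target of p53. It was measured by 1 probe set, with 184.1 and 129.6 in spleen of mouse 1 and mouse 2, against 265.5 and 302.0 in blood. Spleen was lower in both mice and the groups did not overlap. The difference was -0.49 in mouse 1 and -1.13 in mouse 2. The fitted value corresponds to a 0.570-fold level in spleen, its unadjusted p was 0.0038 and limma's adjusted p was 0.210. At least 1.5-fold lower in both mice were 0 of the 9 members and 63 of all tested genes (0.542%), and Pmaip1 missed this mark in mouse 1. Leaving out 1 array at a time gave differences between -1.04 and -0.58 with adjusted p between 0.081 and 0.845.

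Bcl2l11 encodes BIM, which can bind every survival protein of the family. Its brightest probe set had 329.4 and 258.7 in spleen, against 330.7 and 444.0 in blood. Mouse 1 was level, with a difference of -0.01, and the difference of -0.74 in mouse 2 made up nearly all of the fitted -0.37 ± 0.19 (limma's adjusted p = 0.468). Without blood of mouse 2 the difference was -0.17, and without spleen of mouse 2 it was -0.21. The probe sets disagreed: 1435449_at was also lower in both mice, while 1435448_at and 1426334_a_at, both dim, were higher in both. The fifth, 1456006_at, passed the filter and had 128.9 and 105.2 in spleen against 94.0 and 108.3 in blood. Its differences went opposite ways, with 0.40 in mouse 1, -0.04 in mouse 2 and a fitted difference of 0.18 ± 0.14. Probe set 1435448_at had 55.7 and 88.4 in spleen against 0.21 and -29.3 in blood. One blood value was near 0 and the other below it, so no fold is given, and all 4 values lay under the brightness filter.

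Bbc3, which makes PUMA, another BH3-only product known as a p53 target, had 170.1 and 179.3 in spleen against 216.0 and 199.6 in blood. Both spleen arrays were below both blood arrays, with differences of -0.32 in mouse 1 and -0.14 in mouse 2. The fitted difference was -0.23 ± 0.11, with limma's adjusted p = 0.468. Bad, whose protein is held inactive by phosphorylation downstream of survival signals, had 671.2 and 755.5 in spleen against 756.6 and 824.3 in blood. The groups were separated by only the small step between 755.5 and 756.6, the fitted difference was -0.15 ± 0.12, and limma's adjusted p was 0.660. Both of its probe sets were lower in spleen in both mice, the second by -0.03 and -0.01.

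Bid links death receptors to the mitochondria once caspase 8 has cut its protein. It had 310.4 and 277.3 in spleen against 258.3 and 284.4 in blood. The mice disagreed, with differences of 0.25 in mouse 1 and -0.03 in mouse 2, and the fitted value was 0.11 ± 0.12 with limma's adjusted p = 0.754. The other 2 probe sets of Bid were under the filter and higher in spleen in both mice.

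**Figure D3:**
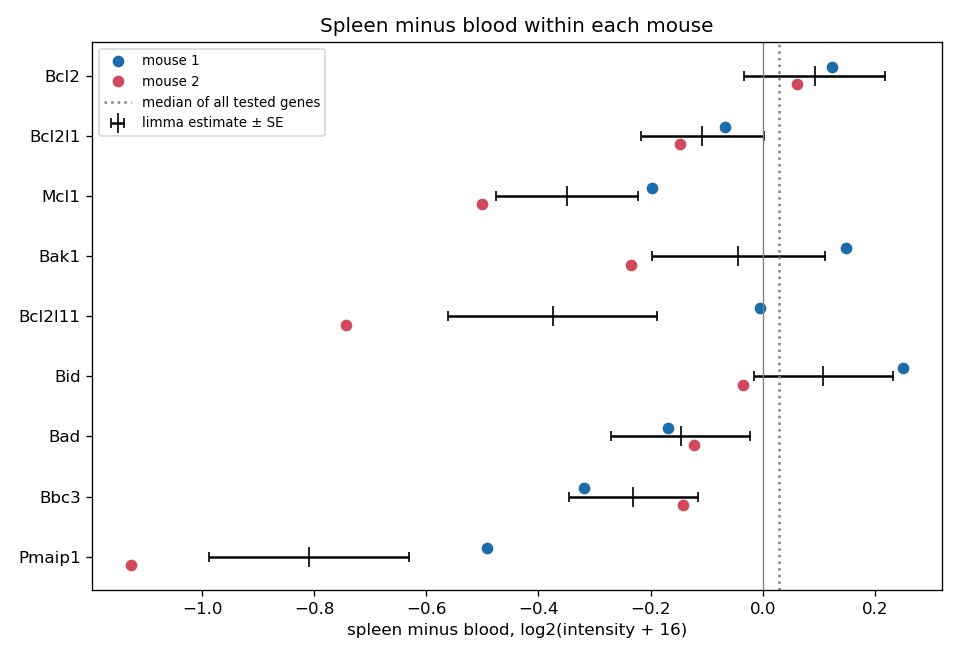
Spleen minus blood for each member on the log2(intensity + 16) scale, with a point for each mouse, the limma estimate with its SE, and a dotted line at the median of all tested genes, 0.03. Pmaip1 lies farthest left, at -0.49 in mouse 1 and -1.13 in mouse 2, and the points of Bak1 and Bid lie on both sides of 0.

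Counted together, both spleen arrays were below both blood arrays for 6 of the 9 members, where 17.6% of all tested genes showed this, and above both for 0 members, where 27.5% did. For Bcl2l11 and Bad the highest spleen and lowest blood values were close, at 329.4 and 330.7 and at 755.5 and 756.6. In relative terms these gaps were smaller than those between the medians of the arrays concerned. Those medians were 108.3 and 103.7 in spleen of mouse 1 and mouse 2, and 110.6 in blood of mouse 1. The separation of Bcl2l11 and of Bad thus depends on the scaling of the arrays. The count was not repeated with other scalings. Over the 23 member probe sets that passed the filter, 15 were lower in spleen in both mice, 2 were higher and 6 went opposite ways. Among all 18952 tested probe sets 25.2% were lower and 39.9% higher in both mice. Since Mcl1 supplies 6 and Bcl2 supplies 5 of the member probe sets, that count weighs these genes more than the others.

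The mice also differed from each other. For 4 of the 9 members, Mcl1, Pmaip1, Bcl2l11 and Bcl2l1, both extremes came from mouse 2, with spleen the lowest array and blood the highest, as for 11.9% of all tested genes. The same 4 members were lower in spleen in both mice and more so in mouse 2, as were 16.8% of all tested genes. Their larger difference in mouse 2 follows from the order of the arrays and is no separate observation. In mouse 2 relative to mouse 1, Pmaip1 differed by -0.46 in spleen and by 0.18 in blood, Bcl2l11 by -0.33 and 0.41, and Mcl1 by -0.20 and 0.11. These are values of 1 animal on each side and carry no test. The order of the arrays was shared by 8 of 11 tested granulocyte genes and by 11 of 15 tested immediate early genes. The same order held for 6 of 8 tested macrophage and monocyte genes, and 6 of those 8 went opposite ways in the mice. S100a9, an abundant protein of neutrophils, had 1146 and 144.4 in spleen against 2333 and 5862 in blood. The immediate early genes, fast responders to stimulation, had a median difference of -1.04, and 14 of 15 were lower in spleen in both mice. Dusp1, one of these, had 621.0 and 163.8 in spleen against 2334 and 2793 in blood. The part of these genes and cells in the differences of the BCL2 family was not tested. Mitosis genes moved the other way: all 14 tested ones were higher in both mice, with a median difference of 0.80. Of all tested genes 38.5% were higher and 25.1% lower in both mice, and 36.4% went opposite ways.

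The promoters of the 3 members among those 4 for which a sequence can be given are printed because these genes had the same order of arrays. Each window covers 250 bases before to 50 after a transcript start of RefSeq, assembly GRCm38.p6, written 5′ to 3′ on the gene's strand. For genes with several windows, the one with the lowest start coordinate is shown. Capitals mark any match on either strand, and neighbouring matches can run together. The motifs searched were AGATAA for the GATA factors, TGACGTCA for the cAMP response element, TGACTCA for the factor AP-1, CACGTG for the E-box, GGAAGT for the ETS factors and GGGCGG for the GC box.
Mcl1, chr3:95658471-95658770, plus strand: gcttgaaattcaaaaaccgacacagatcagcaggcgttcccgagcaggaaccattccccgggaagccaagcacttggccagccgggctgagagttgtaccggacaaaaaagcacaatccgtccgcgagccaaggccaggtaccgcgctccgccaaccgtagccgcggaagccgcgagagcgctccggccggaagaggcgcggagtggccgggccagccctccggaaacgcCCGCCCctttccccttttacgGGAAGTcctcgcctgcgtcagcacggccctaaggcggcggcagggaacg
Bcl2l11, chr2:128125788-128126087, plus strand: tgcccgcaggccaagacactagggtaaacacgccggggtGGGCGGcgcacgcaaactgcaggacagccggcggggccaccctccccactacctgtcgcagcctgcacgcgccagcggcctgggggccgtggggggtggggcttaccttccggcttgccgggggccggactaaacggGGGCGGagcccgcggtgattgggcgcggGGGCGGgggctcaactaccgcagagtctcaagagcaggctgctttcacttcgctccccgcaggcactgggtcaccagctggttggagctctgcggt
Bcl2l1, chr2:152828440-152828739, minus strand: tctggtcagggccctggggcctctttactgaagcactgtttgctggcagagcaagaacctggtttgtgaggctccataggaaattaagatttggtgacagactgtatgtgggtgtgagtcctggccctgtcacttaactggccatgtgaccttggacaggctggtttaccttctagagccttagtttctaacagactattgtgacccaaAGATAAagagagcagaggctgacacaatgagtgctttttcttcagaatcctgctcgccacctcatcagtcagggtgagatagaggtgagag

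The Mcl1 window held 1 ETS match and 1 GC box, the Bcl2l11 window held 3 GC boxes, and the Bcl2l1 window held 1 GATA match. Bcl2l1 has 3 windows and lies on the minus strand, so the one shown belongs to its most downstream start; the other 2 held no GATA match and 1 ETS match each. Among 32851 windows of the same length, 23.8% held the ETS letters, 35.7% the GC box, 11.2% the GATA letters, 5.2% AP-1, 7.15% the E-box and 1.79% the cAMP response element. The 3 printed windows had no AP-1, E-box or cAMP response element letters. A match is a description of the letters and does not show binding.

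Around the family, 80 other genes of the apoptosis machinery were listed in 8 groups, of which 70 were measured and 62 tested. None passed over all genes. In both mice 28 were higher and 16 lower in spleen, against 38.5% and 25.1% of all tested genes, and the median difference was 0.05. Limma's unadjusted p was under 0.05 for 3 higher genes of the 62, Birc5, Pim2 and Bnip1, and for 1 lower gene, Bcl2l2. Of all tested genes 8.12% were higher and 4.31% lower at this threshold.

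Genes of the apoptosome and of mitochondrial release were mostly higher in spleen. Of 12 tested genes of this group, 11 were higher in both mice, where 38.5% of all tested genes were, and 1 was lower, with a median difference of 0.15 and 0 passing the test. The outer membrane channel gene Vdac3 had 3210 and 3297 in spleen against 2791 and 2626 in blood (0.26 ± 0.11), Vdac1 differed by 0.22 ± 0.13 and Opa1, which shapes the inner membrane, by 0.26 ± 0.12. The lowest adjusted p by limma in this group was 0.417. Cycs, the cytochrome c that is released, had 5153 and 5130 in spleen against 4614 and 4459 in blood (0.18 ± 0.11). Of 6 tested caspase and substrate genes 2 were higher and 1 lower in both mice, and 3 went opposite ways. The shares over all tested genes were 38.5%, 25.1% and 36.4%. Casp2 differed by 0.26 ± 0.11, the DNA repair enzyme and caspase substrate Parp1 by 0.38 ± 0.17, and Dffa, the inhibitor of the apoptotic nuclease, by -0.22 ± 0.11.

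Inhibitor of apoptosis genes were split. Birc5, or survivin, which also serves in mitosis, had 2396 and 2412 in spleen against 1441 and 1392 in blood. Spleen was higher in both mice by 0.73 and 0.79, and limma's adjusted p was 0.140. Xiap, the direct caspase inhibitor, differed by 0.26 ± 0.13 and Birc3, a regulator of NF-kB signalling, by -0.35 ± 0.15. Of the 8 tested genes in this group 3 were higher and 1 lower in both mice, and 4 went opposite ways. Over all tested genes these shares were 38.5%, 25.1% and 36.4%.

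Closest to the 10 members by kinship, the survival gene Bcl2l2, which makes BCL-W, had 220.1 and 209.3 in spleen against 281.9 and 258.4 in blood, a difference of -0.31 ± 0.12 with limma's adjusted p = 0.373. Both of its spleen arrays lay below both blood arrays, as for 17.6% of all tested genes. Bnip1 differed by 0.37 ± 0.14, Bnip2 by 0.13 ± 0.12 and Bcl2l14 by -0.27 ± 0.14. Of 4 further BH3-containing genes, Becn1 was lower in both mice, at -0.21 ± 0.11, and Bik, Bmf and Hrk went opposite ways. In the death receptor group 4 of 8 measured genes passed the filter, and Cflar, which blocks caspase 8, was nearly level at -0.07 ± 0.11.

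Among 22 tested regulators of the family 10 were higher and 8 lower in both mice, with a median difference of 0.05. Of all tested genes 38.5% were higher and 25.1% lower in both mice. The survival kinase Pim2, which phosphorylates BAD, had 335.7 and 316.0 in spleen against 246.2 and 203.4 in blood, a difference of 0.51 ± 0.13 with limma's adjusted p = 0.274. Stat5a, a cytokine-driven factor known to induce Bcl2l1, differed by 0.22 ± 0.11 and the cell cycle factor E2f1 by 0.23 ± 0.12. Both spleen arrays were above both blood arrays for Pim2, Stat5a and E2f1, as for 27.5% of all tested genes. These genes were named for their same-direction differences in the mice, so this separation is no added result.

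**Figure D4:**
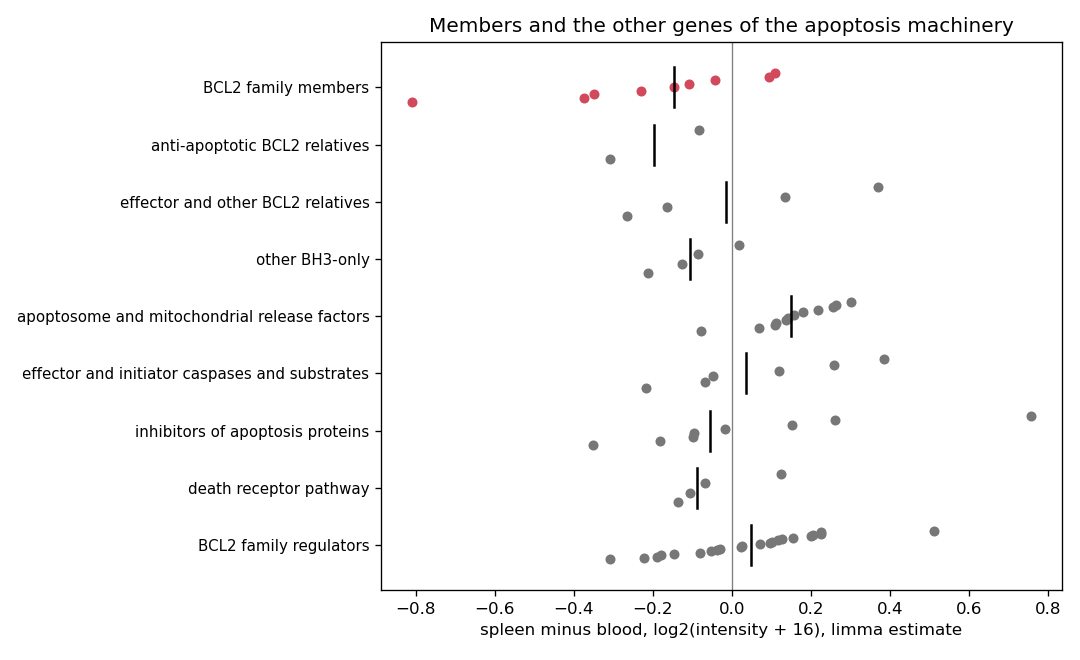
Fitted spleen minus blood differences on the log2(intensity + 16) scale, with a point per tested gene and a black bar at each group's median, for the 9 members and the 8 groups of other apoptosis genes. The members have a median of -0.15, the apoptosome and release genes one of 0.15, and no gene shown passed the test.

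The tested genes most like Pmaip1 over the 4 arrays, by Euclidean distance between log2 values centred on each gene's mean, were Tuba1a (0.10), Ccser2 (0.10) and Tbc1d8 (0.11). Those most like Mcl1 were Wsb2 (0.03), Flot1 (0.04) and Rabep2 (0.04). Their closeness over 4 arrays describes a shared order and similar sizes of the differences only. Flot1, for example, had 1010 and 891.4 in spleen against 1156 and 1286 in blood.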

How the data were processed

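Gene expression was measured on 4 Affymetrix mouse arrays, and the labels give biotinylated cRNA made from Trizol-extracted total RNA. The deposited table holds linear probe set intensities, as its values show; the authors' probe summary, background correction and scaling are not given in the sources used here. Of 45101 probe sets, 34945 were paired with 1 gene, 932 with several, 64 were controls and 9160 others were not listed. Symbols were updated through Entrez identifiers with RefSeq (GRCm38.p6) (34741 one-gene probe sets matched). Values below 0 (1.60% to 2.17% of an array) were raised to 0 before log2(intensity + 16) was computed, so fold changes of dim genes are understated. The floor at 0 was needed because values below 0 occur. Each gene took its probe set with the highest mean, and the 11614 genes at or above the median of all probe sets (intensity 106.4) were tested.

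Tissues were compared, spleen over blood, with limma 3.58.1 in R 4.3.3, two-sided, tissue as the sole term, Benjamini-Hochberg adjustment over all tested genes and a threshold of 0.05. Errors are the SEs of this fit. Arrays of one mouse number are paired, since per the labels both tissues came from that animal; mouse 2 minus mouse 1 in spleen and in blood correlated at r = 0.10 across genes, which are not independent replicates. Alternatives were mouse as a block, other offsets, scalings, filters, probe set rules and prior, and leaving out each array. All 9 measured members passed the filter; of each list of apoptosis genes, the 3 tested genes with the largest smaller same-direction difference are named, and others as examples of counts. For likeness, the 2 members with the largest such difference were taken. The members and lists were chosen with earlier results of these data known.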

Additional observations from a re-analysis of the deposited data

Results flagged for a closer look

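Both of the members named here had tissue differences of opposite direction in the 2 mice, which was not tested because each tissue of each mouse is 1 array. Bak1, spleen minus blood on the log2 scale, was 0.15 in mouse 1 and -0.24 in mouse 2. Bid was 0.25 in mouse 1 and -0.034 in mouse 2. Opposite directions were found for 36.4% of all tested genes. Groups of 2 arrays are too small for a check of outlying arrays.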

How the results depend on the processing

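The number of members past the adjusted threshold was 0 under all 14 alternatives. The number of genes past it was 0 in the reported fit, 40 with the stricter brightness filter (intensity 325.6, 23 higher and 17 lower in spleen), 45 with an intensity trend in the prior (23 higher and 22 lower), and between 0 and 20 when 1 array was left out, the 20 being without spleen of mouse 1 (2 higher and 18 lower). With mouse as a block (replicate block), 0 genes passed and 1812 had an unadjusted p under 0.05; the adjusted p was 0.224 for Pmaip1 and 0.302 for Mcl1, and the block changed no call. Of 120 member values under the alternatives, 114 kept their direction. Those that did not were Bcl2 with the mean of all probe sets (-0.17) and without spleen of mouse 1 (-0.00096), Bcl2l1 with the mean of all probe sets (0.0042), and Bak1 with arrays centred on their median (0.00052), with the mean of all probe sets (0.074) and without spleen of mouse 2 (0.15); the cause was not tested. Leaving out 1 array gave values from -0.00096 to 0.19 for Bcl2 and from -0.23 to 0.15 for Bak1. Over all alternatives Pmaip1 ranged from -1.04 to -0.58, Mcl1 from -0.45 to -0.25 and Bcl2l11 from -0.58 to -0.17. Bbc3 ranged from -0.28 to -0.18, Bad from -0.23 to -0.06 and Bid from 0.03 to 0.19. For each of these genes both ends are fits without 1 array. Bcl2l11 and Bid have no value with the mean of their probe sets, which was under the filter, and Bak1, Bid, Bbc3 and Pmaip1 have none under the stricter filter. Testing every probe set was added after the data were seen; 0 of 18952 passed, with 2656 at an unadjusted p under 0.05. Median differences of all tested genes ranged over less than 0.1 across the scalings. Signals near the filter are dim, and their log2 differences depend on the offset: that of Pmaip1 was -0.86 with an offset of 4 and -0.66 with 64.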
